A study of Mus musculus with 18 samples.

Results

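The genes described are 9 core genes of the heat-producing programme of brown adipocytes: Ucp1, Dio2, Kcnk3, Letmd1, Cidea, Ppargc1a, Ppargc1b, Prdm16 and Ebf2. They were chosen by gene name from a count table of 45706 genes, all 9 were present, and all 9 were among the 14788 genes that passed the filter on low counts. The rule used no measured value, but the genes were chosen with earlier results of these data known. Brown adipocytes burn lipid in their mitochondria and let the energy go as heat. Cold reaches them as norepinephrine from sympathetic nerves, which acts through beta-adrenergic receptors and cAMP to release fatty acids and to switch on this programme. UCP1 carries out the final step by letting protons leak across the inner mitochondrial membrane, and coactivators and transcription factors such as PGC-1α, PRDM16 and EBF2 set up and maintain the cell's capacity for it.

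The cells belonged to the BMC line, mouse brown preadipocytes that were immortalised and then differentiated in culture into brown adipocytes. By their labels, 6 libraries came from cells that were not induced (0 h), and 6 each from cells treated with 1 µM norepinephrine for 4 h and for 24 h, all carrying the same batch label. Every library is also labelled day 7. The titles number the 6 libraries of each time 1 to 6. Whether a number stands for a culture of its own is not stated, so a p-value here weighs a difference against spread that could be purely technical. All 18 libraries derive from 1 immortalised line, and none of the groups contains tissue or a second line.

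Total expected counts per library ran from 7010742 to 26501223. The library labelled 24 h replicate 5 stood apart: it was the shallowest, and 41.5% of its counts fell on Yam1 and Gm26917, transcripts that collect ribosomal RNA reads, against 6.78% to 10.6% in the other 17 libraries. The replicate numbers divided the libraries more than the labelled times did. In the median tested gene 72.0% of the variance across libraries lay between numbers and 3.78% between labelled times. Libraries whose numbers are 3 apart resembled each other, so the numbers form 3 sets of 6 libraries (1+4, 2+5 and 3+6), each with 2 libraries of every labelled time. The 6 numbers make more groups than the 3 times, which by itself raises their share. Between the 3 sets lay 62.7% of the variance in the median tested gene. Nothing in the labels ties a number to a treatment, a culture or a day, and what separates the sets was not tested. With the numbers taking this share of the variance, the time labels are in doubt: whether labelled times and replicate numbers were exchanged somewhere between the cultures and the deposited table cannot be settled from the labels. Every comparison of times below is of libraries as labelled, and every set is a set of title numbers with no treatment assigned to it.

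Adipocyte identity was checked against marker lists. All 22 general adipocyte markers had a count in some library, with a summed level of 15010 to 27494 CPM (counts scaled to a common library size) per library. Of the 43 brown adipocyte markers matched to the table, 41 had a count in some library, with Ckmt2 and Slc27a2 at 0 counts. Of these markers 33 passed the filter, and they summed to 1514 to 2170 CPM with the rest. A count in some library is a weak criterion, which 10 of 13 skeletal muscle, 8 of 12 macrophage and 8 of 9 endothelial markers also met. Markers of macrophages summed to at most 6.13 CPM with Adgre1, Tyrobp, C1qa and C1qb at 0, those of endothelial cells to at most 4.40 CPM with Cdh5 at 0, and those of skeletal muscle to at most 10.6 CPM with Myf5, Myod1 and Myf6 at 0. Preadipocyte and fibroblast markers were present at 1520 to 3382 CPM in sum.

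All 9 genes code for proteins. On the mouse genome build mm10 with the GENCODE M21 annotation, Ucp1 (ENSMUSG00000031710) lies on the plus strand of chromosome 8 from 83290352 to 83298452, and Dio2 (ENSMUSG00000007682) on the minus strand of chromosome 12 from 90724552 to 90738438. Kcnk3 (ENSMUSG00000049265) occupies chromosome 5 from 30588170 to 30625271 on the plus strand, and Ppargc1a (ENSMUSG00000029167) the same chromosome from 51454250 to 51567726 on the minus strand. Prdm16 (ENSMUSG00000039410) lies on chromosome 4 from 154316125 to 154636873 on the minus strand. Ebf2 (ENSMUSG00000022053) is on the plus strand of chromosome 14 from 67233292 to 67430918, and Letmd1 (ENSMUSG00000037353) on the plus strand of chromosome 15 from 100469023 to 100479164. Cidea and Ppargc1b carry the identifiers ENSMUSG00000024526 and ENSMUSG00000033871. Genes on the opposite strand overlap 7 members, Ucp1 and Letmd1 being free of them, and the strand setting of the counting is not given in the sources used here, so reads of such partners could not be told apart. Transcripts on the same strand overlap Ppargc1a and Ppargc1b, the latter being the host of the microRNA gene mir-378a, and their counts carry the same doubt.

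Compared per kilobase of merged exons, a scale that allows for gene length, the 9 genes covered a wide range of levels. The length merges the exons of all annotated transcripts, expressed or not, so the order between genes depends on the annotation. In the 6 libraries of numbers 1+4, Kcnk3 was the highest at 66.7 ± 1.37 CPM per kb (SD, n = 6), followed by Ppargc1b at 46.7 ± 1.75 and Ppargc1a at 20.0 ± 0.680. Ebf2 at 13.6 ± 0.392, Letmd1 at 13.04 ± 0.397 and Cidea at 12.7 ± 0.988 CPM per kb came next, and neighbours among these 3 overlapped. Ucp1 followed at 9.63 ± 1.20, Prdm16 at 1.64 ± 0.183 and Dio2, the least abundant, at 0.420 ± 0.0519 CPM per kb. Ucp1, the gene most used to identify brown fat, was thus below 6 of the other 8 genes on this scale.

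The order held in numbers 2+5 for the first 3 places and the last 3, while Letmd1 at 8.52 ± 0.488 CPM per kb lay below Cidea at 12.4 ± 1.19 with no overlap. In numbers 3+6 the ranges of Ppargc1b, at 45.9 ± 2.52 CPM per kb, and Kcnk3, at 40.5 ± 2.09, overlapped at the top. There Ucp1, at 1.10 ± 0.327 CPM per kb, overlapped Prdm16, at 1.10 ± 0.0663. Dio2 was the lowest in every set, at 0.0470 ± 0.0292 CPM per kb in numbers 2+5 and 0.0889 ± 0.0321 in numbers 3+6.

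**Figure D1:**
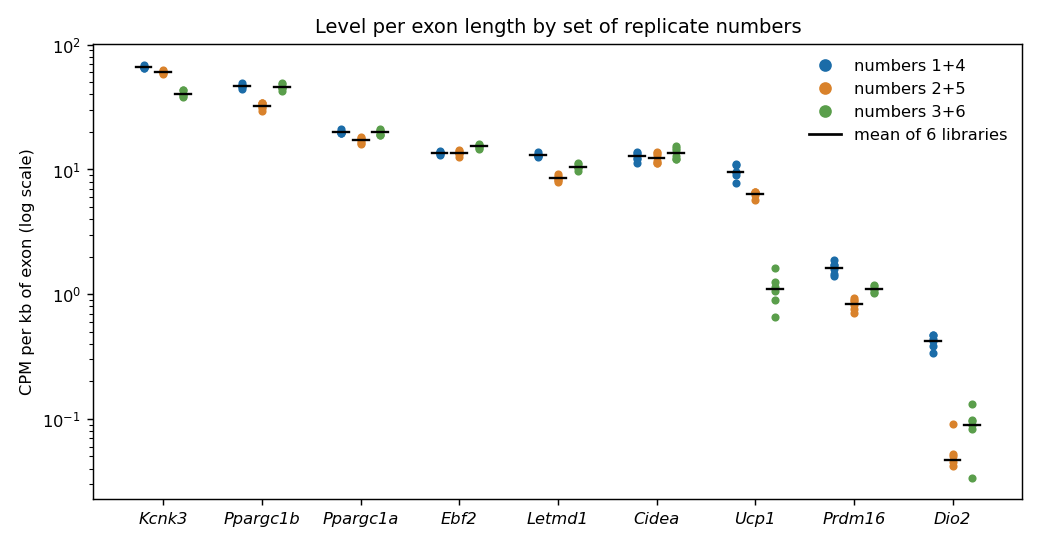
Level of the 9 genes in CPM per kb of exon (log axis), with 1 point per library, colours for the 3 sets of replicate numbers and black bars for the means of 6 libraries. Ucp1 and Dio2 differ most between the sets. The library of numbers 2+5 with 0 counts of Dio2 (24 h replicate 5) cannot be drawn on a log axis but enters its mean.

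Sequence upstream of the start is shown for 3 members that textbooks name as targets of beta-adrenergic cAMP signalling: Ucp1, Dio2 and Ppargc1a. Each line gives the 250 bases before the RefSeq start on build GRCm38.p6, 5′ to 3′ on the gene's own strand, with matches to the cAMP response element TGACGTCA or its half-site TGACG, on either strand, in capitals. The windows are chr8:83290098-83290347 (plus strand) for Ucp1, chr12:90739039-90739288 (minus strand) for Dio2 and chr5:51567726-51567975 (minus strand) for Ppargc1a.
Ucp1: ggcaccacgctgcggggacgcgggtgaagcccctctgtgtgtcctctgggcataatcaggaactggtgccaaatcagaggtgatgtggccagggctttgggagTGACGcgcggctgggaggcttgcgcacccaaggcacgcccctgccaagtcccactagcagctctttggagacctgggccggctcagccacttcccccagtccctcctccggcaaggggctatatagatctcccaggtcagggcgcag
Dio2: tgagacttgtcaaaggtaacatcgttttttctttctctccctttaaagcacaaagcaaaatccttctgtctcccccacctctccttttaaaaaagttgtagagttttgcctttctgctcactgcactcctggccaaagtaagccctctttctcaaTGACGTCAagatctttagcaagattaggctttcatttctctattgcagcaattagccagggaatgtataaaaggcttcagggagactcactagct
Ppargc1a: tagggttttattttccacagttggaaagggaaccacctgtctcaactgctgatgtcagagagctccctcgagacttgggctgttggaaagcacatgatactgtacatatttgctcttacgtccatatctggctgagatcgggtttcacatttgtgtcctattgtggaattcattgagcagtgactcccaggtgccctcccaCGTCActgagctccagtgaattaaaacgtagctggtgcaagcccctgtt
The promoter of Dio2 held the full element from base -95 to base -88 before the start, which 1.79% of 32851 mouse promoters of 300 bases (250 before the start and 50 after) also held. The RefSeq start of Dio2 lies upstream of the gene in GENCODE M21, which reaches 90738438. The last 30 bases of its promoter entry matched 0 GENCODE transcripts of Dio2, so its positions count from the RefSeq start only. Ucp1 held the half-site from -147 to -143, and Ppargc1a held it on the opposite strand, as CGTCA, from -49 to -45. The half-site is part of the full element and occurred in 20.8% of all promoters. Dio2 also had the TATA box letters TATAAA from -30 to -25, found in 13.6% of promoters on either strand. Of the members, 5 had an entry in the RefSeq promoter table, and the other 2 of these, Prdm16 and Letmd1, matched neither form of the cAMP response element. A match describes letters in a window and says nothing of binding in these cells.

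The comparison that the series design names is between labelled times, and it asks which transcripts change after norepinephrine. No member was called in any of the 3 comparisons of times at an adjusted p under 0.05 (edgeR quasi-likelihood test, Benjamini-Hochberg adjustment over 14788 genes). The background was the same, with 0% of all genes called in each comparison. At an unadjusted p under 0.05, 0 of 9 members passed, beside 1.17% of all genes for 4 h against 0 h, 1.07% for 24 h against 0 h and 0.926% for 24 h against 4 h. DESeq2 and limma-voom also called 0 members in each. Given the doubt about the labels, these counts describe the libraries as labelled and may not measure the response to norepinephrine.

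Ucp1 ranged from 1.72 CPM in its lowest library through a median of 10.7 to 15.6 CPM in its highest at 0 h. At 4 h it ranged from 1.46 through 10.1 to 18.03 CPM, and at 24 h from 1.08 through 10.6 to 15.6 CPM. The 3 times overlapped almost completely, each holding libraries below 3 CPM and libraries above 12 CPM. The log2 fold change of Ucp1 was 0.12 for 4 h against 0 h (95% interval -1.29 to 1.53) and -0.09 for 24 h against 0 h (-1.53 to 1.35).

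Dio2, which makes active thyroid hormone inside the cell, had a median of 0.565 CPM at 0 h (0.245 to 2.45), 0.538 CPM at 4 h (0.195 to 2.71) and 0.527 CPM at 24 h (0 to 2.75). Ppargc1a, the coactivator best known for its response to cold and adrenergic stimulation, had a median of 132 CPM at 0 h (116 to 140), 124 CPM at 4 h (112 to 132) and 128 CPM at 24 h (105 to 139). In neither gene did any time stand apart from another, and that held for all 9 members, beside 0.0676%, 0.0406% and 0% of all genes whose groups did not overlap in the 3 comparisons. The fold changes of the 9 genes lay between -0.09 (Ppargc1b) and 0.12 (Ucp1) on the log2 scale for 4 h against 0 h, and between -0.09 (Ucp1) and 0.17 (Dio2) for 24 h against 0 h. For 24 h against 4 h they lay between -0.21 (Ucp1) and 0.13 (Dio2).

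**Figure D2:**
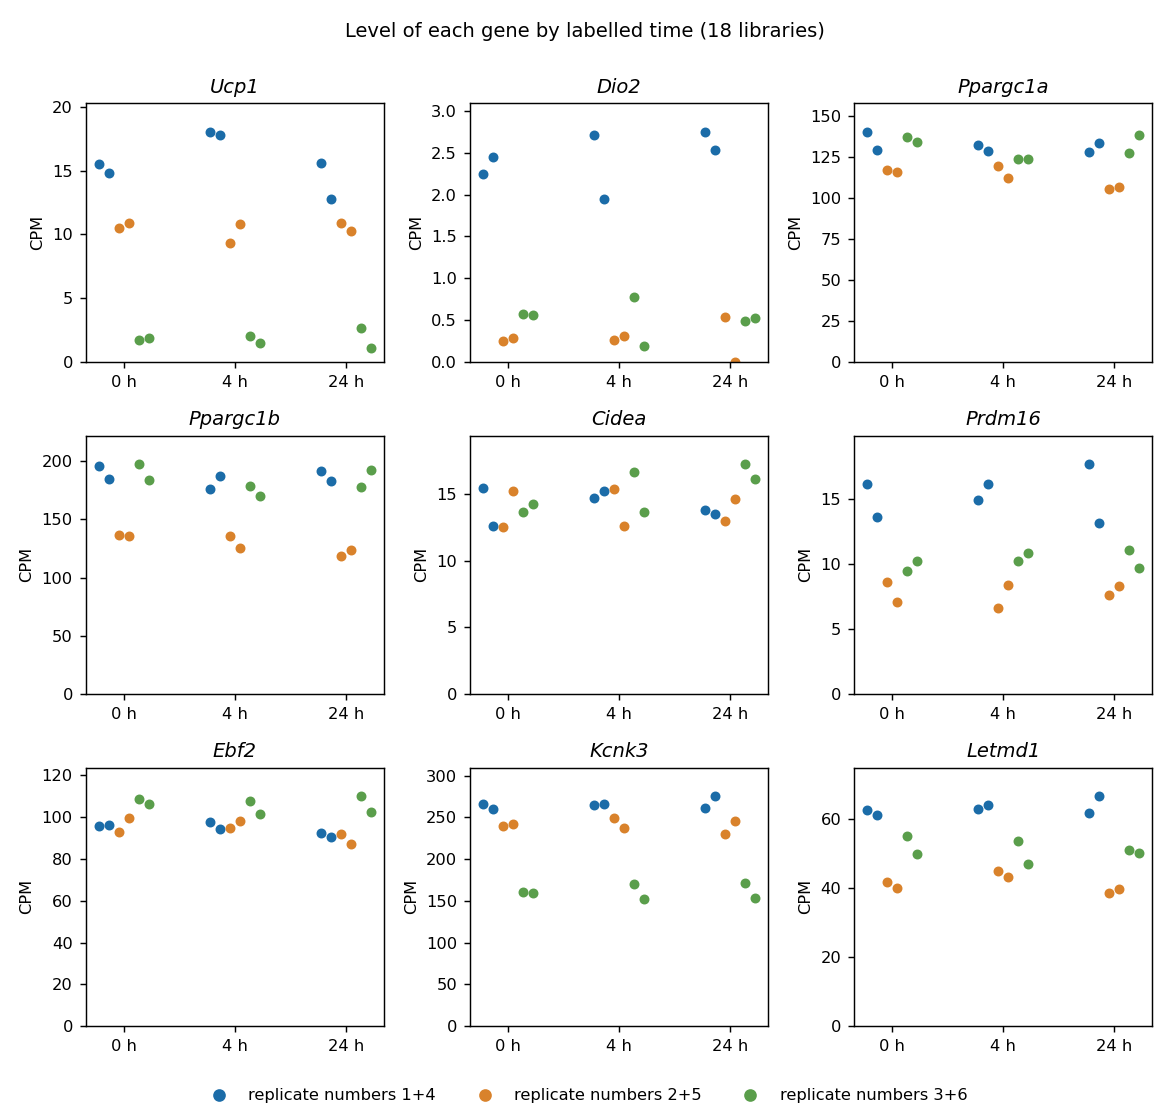
CPM of each gene (vertical axes from 0) in the 18 libraries by labelled time (horizontal axis), coloured by set of replicate numbers. In Ucp1, Kcnk3, Prdm16 and Letmd1 the colours separate at every time, and no gene's points shift as a whole from 0 h to 4 h or 24 h.

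Because the titles number the libraries of each time alike, the times were also compared within numbers. Blocking on the replicate number narrowed the intervals, that of Ucp1 for 4 h against 0 h to -0.10 to 0.29 (log2 fold change 0.09) and for 24 h against 0 h to -0.24 to 0.17 (-0.03). No member was called with the block either, beside 0%, 0.00676% and 0% of all genes in the same 3 comparisons. At an unadjusted p under 0.05, 1 member passed for 4 h against 0 h beside 9.88% of all genes, and 0 members passed in the other comparisons beside 7.81% and 5.12%. Ppargc1b came nearest, at -0.08 for 4 h against 0 h (95% interval -0.17 to -0.0045, edgeR adjusted p = 0.484), and it was lower at 4 h in 5 of the 6 numbers. Ppargc1a was lower at 4 h than at 0 h in 5 of 6 numbers as well, by -0.06 (-0.14 to 0.02). Ucp1 was higher in 3 numbers and lower in 3, at both later times. A test of whether the difference between times depended on the set called 0 members and 0% of all genes (2.81% at an unadjusted p under 0.05), with a smallest unadjusted p among the members of 0.182 in edgeR's test.

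**Figure D3:**
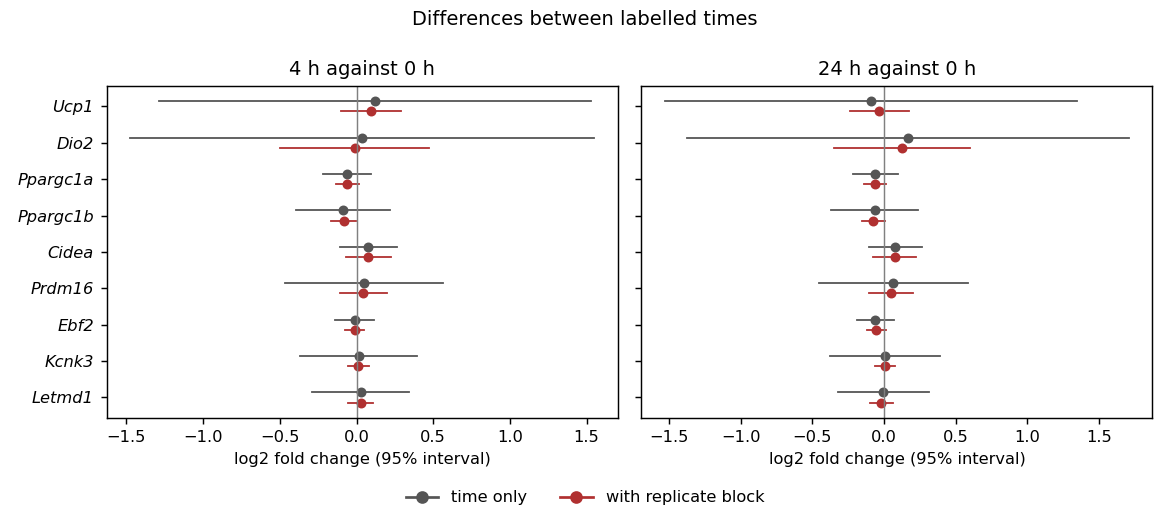
Log2 fold changes of 4 h and of 24 h against 0 h (horizontal axes) for the 9 genes, with 95% intervals, from the model with time only (grey) and with the replicate number as a block (red). With the block the interval of Ucp1 for 4 h shrinks to -0.10 to 0.29, every interval but that of Ppargc1b at 4 h includes 0, and Dio2 has the widest.

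Between the sets of replicate numbers the same genes differed by up to 8.50-fold. In these bulk libraries fewer cells of a type and less RNA per cell cannot be told apart. The sets were noticed on these data in an earlier analysis, so their p-values describe the spread between libraries and are not independent evidence. The set 1+4 serves as the reference in the first comparisons only because it holds the lowest number, and comparisons that share a set share its libraries. Against 1+4, numbers 2+5 were lower in 7 of 9 members and higher in none (edgeR, adjusted p under 0.05), beside 59.5% of all genes called, 29.9% lower and 29.6% higher. Numbers 3+6 were lower in 5 members and higher in 1, beside 59.7% called, 29.5% lower and 30.2% higher. Numbers 3+6 against 2+5 were higher in 6 members and lower in 2, beside 57.1% called, 28.6% higher and 28.5% lower. With 57.1% to 59.7% of all genes called, a call by itself singles out no member, and the sizes carry the description.

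Ucp1 had 12.8 CPM in the lowest, 15.6 in the median and 18.03 in the highest library of numbers 1+4. In numbers 2+5 these values were 9.35, 10.7 and 10.9 CPM, and in numbers 3+6 they were 1.08, 1.80 and 2.65 CPM. The 3 sets did not overlap. Ucp1 was 8.50-fold lower in numbers 3+6 than in 1+4 (log2 difference -3.09, SE 0.12; edgeR adjusted p = 4.12e-17) and 1.50-fold lower in 2+5 than in 1+4 (-0.59, SE 0.10, edgeR adjusted p = 1.01e-05). Between 3+6 and 2+5 the log2 difference was -2.50 (SE 0.13). Of the 14788 genes tested, 0.210% had a fold change against 1+4 at or below that of Ucp1 in numbers 3+6. The summed counts behind these levels were 1945, 1035 and 247 in the 3 sets, so the exact Poisson interval for numbers 3+6 was 1.63 to 2.10 CPM, which covers counting error only.

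Dio2 followed another order. It had 1.95, 2.49 and 2.75 CPM in the lowest, median and highest library of numbers 1+4, against 0, 0.278 and 0.533 CPM in 2+5 and 0.195, 0.538 and 0.771 CPM in 3+6. The first set stood above both others without overlap, while the latter 2 overlapped. Dio2 was 7.35-fold lower in 2+5 (log2 fold change -2.88, SE 0.25, edgeR adjusted p = 7.72e-11) and 4.46-fold lower in 3+6 (-2.16, SE 0.21, edgeR adjusted p = 7.21e-10). Only 0.0947% of tested genes had a fold change at or below that of Dio2 in numbers 2+5. Numbers 3+6 exceeded 2+5 by 0.72 (SE 0.30, edgeR adjusted p = 0.0416), a call that was lost when any 1 of 8 libraries was left out (0 h replicates 2, 3, 5 and 6, 4 h replicates 2, 3 and 5, and 24 h replicate 5), with log2 values of 0.54 to 1.01 over all 18 omissions. DESeq2 gave 0.73 with an adjusted p of 0.0602.

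Counting limited Dio2 more than any other member, with 295, 32 and 73 counts in the 3 sets over 6 libraries each. Its variance between the libraries of a set was 0.797 to 0.944 times that expected from counting alone. The library labelled 24 h replicate 5 had 0 counts of Dio2, which at its depth allows a level of up to 0.995 CPM, above every other library of its set. Without that library numbers 2+5 held 0.328 ± 0.117 CPM (SD, n = 5).

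Kcnk3, a background potassium channel known as TASK1, had 260, 265 and 275 CPM in the lowest, median and highest library of numbers 1+4. It had 230, 241 and 249 CPM in 2+5 and 152, 160 and 171 CPM in 3+6. The sets did not overlap, and the differences were small beside those of Ucp1 and Dio2. They came to -0.14 (SE 0.04, edgeR adjusted p = 0.00154) for 2+5 and -0.72 (SE 0.04, edgeR adjusted p = 1.11e-15) for 3+6. For Kcnk3 the sets accounted for 97.8% of the variance across libraries, the highest share among the 9 members, and the labelled times for 0.0229%.

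Letmd1, a mitochondrial inner membrane protein needed for heat production by brown fat, was at 61.1, 62.8 and 66.6 CPM in the lowest, median and highest library of numbers 1+4. It was at 38.5, 40.8 and 44.8 CPM in 2+5 and at 47.1, 50.7 and 55.0 CPM in 3+6. All 3 sets stood apart, with 2+5 the lowest, -0.61 below 1+4 on the log2 scale (SE 0.04, edgeR adjusted p = 1.24e-12) and 3+6 between at -0.30 (SE 0.04, edgeR adjusted p = 3.64e-07). The lowest set for Letmd1 was thus the middle set for Ucp1.

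Cidea, a lipid droplet protein and a marker of brown fat, had 12.6, 14.2 and 15.4 CPM in numbers 1+4, 12.5, 13.8 and 15.4 CPM in 2+5, and 13.6, 15.2 and 17.2 CPM in 3+6, each as lowest, median and highest library. The sets overlapped throughout, and Cidea was the member whose sets accounted for least of its variance, 17.5%. The log2 difference from 1+4 was -0.05 (95% interval -0.20 to 0.10, edgeR adjusted p = 0.584) for 2+5 and 0.11 (-0.04 to 0.25, edgeR adjusted p = 0.197) for 3+6. That of 3+6 against 2+5 was 0.16 (0.01 to 0.31, edgeR adjusted p = 0.0714), which became called when 0 h replicate 3, 0 h replicate 5 or 4 h replicate 6 was left out.

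Ppargc1a and Ppargc1b code for related coactivators that drive mitochondrial biogenesis and oxidative metabolism. Ppargc1a had 128, 131 and 140 CPM in the lowest, median and highest library of 1+4, 105, 114 and 120 CPM in 2+5, and 124, 131 and 139 CPM in 3+6. Ppargc1b had 176, 186 and 196 CPM in 1+4, 118, 131 and 136 CPM in 2+5, and 170, 181 and 197 CPM in 3+6. Both were low in numbers 2+5, apart from the other sets, and overlapped between 1+4 and 3+6. In 2+5 the log2 difference was -0.22 (SE 0.04, edgeR adjusted p = 9.71e-06) for Ppargc1a and -0.53 (SE 0.04, edgeR adjusted p = 4.73e-12) for Ppargc1b. In 3+6 it was -0.01 (95% interval -0.09 to 0.06) and -0.02 (-0.10 to 0.05), with edgeR adjusted p of 0.801 and 0.598, and library totals without scaling turned these signs (0.15 and 0.14). The ratio of Ppargc1b to Ppargc1a, both per kb of exon, was 2.34 ± 0.0948 in 1+4, 1.89 ± 0.0385 in 2+5 and 2.32 ± 0.0574 in 3+6 (SD, n = 6), the middle set lying apart from both others.

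Prdm16, a transcription coregulator that directs precursor cells to the brown fate, had 13.1, 15.5 and 17.6 CPM in the lowest, median and highest library of 1+4. It had 6.62, 7.94 and 8.63 CPM in 2+5 and 9.47, 10.2 and 11.04 CPM in 3+6. No sets overlapped, and numbers 2+5 were the lowest at 1.99-fold below 1+4 (log2 fold change -0.99, SE 0.08, edgeR adjusted p = 2.30e-11), with 3+6 at -0.59 (SE 0.07, edgeR adjusted p = 5.43e-08). Ebf2, an early B cell factor that marks committed brown preadipocytes and opens brown fat genes, had medians of 95.2 CPM in 1+4 (90.4 to 97.6), 93.9 CPM in 2+5 (87.2 to 99.5) and 107 CPM in 3+6 (102 to 110). It was the member higher in 3+6 than in 1+4, by 0.17 (SE 0.03, edgeR adjusted p = 5.54e-05), and 2+5 did not differ detectably (-0.00038, 95% interval -0.07 to 0.07, edgeR adjusted p = 0.994).

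**Figure D4:**
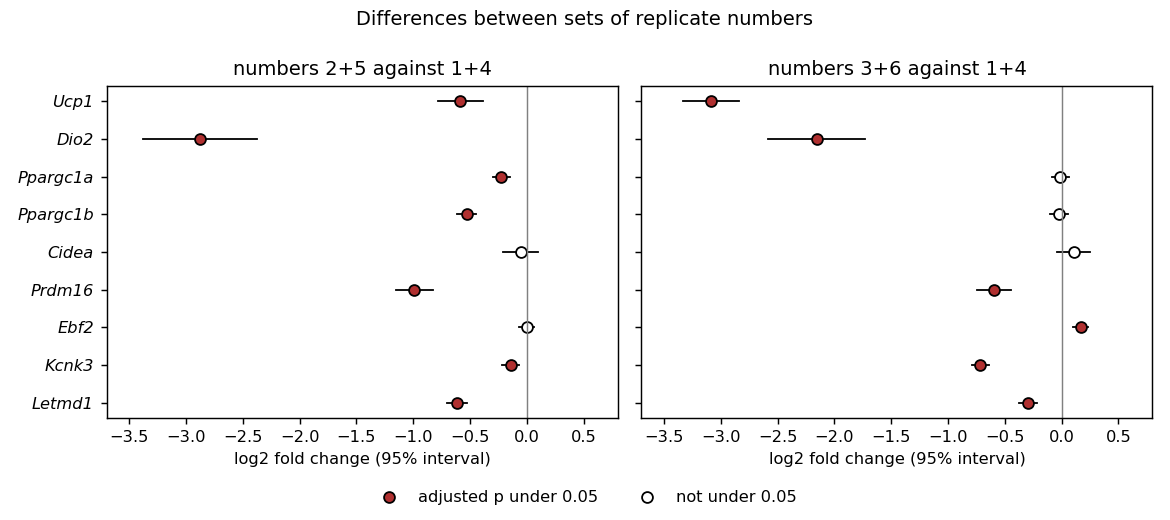
Log2 fold changes of numbers 2+5 and of numbers 3+6 against 1+4 (horizontal axes) for the 9 genes, with 95% intervals. Filled points have an edgeR adjusted p under 0.05. Ucp1 lies at -3.09 in numbers 3+6 and at -0.59 in 2+5, and Dio2 is low in both.

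Libraries of a set did not overlap those of the reference in 7 members for 2+5 against 1+4, beside 35.3% of all genes, and in 6 members for 3+6 against 1+4, beside 38.6%. For 3+6 against 2+5 it was 7 members beside 29.8%. The median log2 fold change over the 9 members was -0.53 in 2+5 and -0.30 in 3+6 against 1+4, and 0.21 in 3+6 against 2+5, while the medians of all genes were within 0.01 of 0. Among the set means of log2 CPM the span was 3.09 for Ucp1 and 2.93 for Dio2, 0.96 for Prdm16, 0.72 for Kcnk3, 0.61 for Letmd1 and 0.53 for Ppargc1b, and at most 0.23 for Ppargc1a, Ebf2 and Cidea. Scaling by library totals alone ended 4 of the calls against 1+4, with SEs of 0.17. In 2+5 these were Ppargc1a (log2 fold change -0.33, edgeR adjusted p = 0.146) and Kcnk3 (-0.25, edgeR adjusted p = 0.296), and in 3+6 Ebf2 (0.33, edgeR adjusted p = 0.125) and Letmd1 (-0.14, edgeR adjusted p = 0.562). The first 3 folds were larger than with the TMM scaling and that of Letmd1 was smaller.

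The comparison was repeated between single numbers of the titles, 3 libraries against 3 others. Number 2 against 1 and number 5 against 4, which share no library, each called 7 members, all lower, beside 47.9% and 45.5% of all genes (24.4% and 22.5% lower, 23.5% and 23.0% higher). Number 3 against 1 and number 6 against 4 each called 6, of which 1 was higher, beside 49.9% and 48.0% (25.1% and 24.1% lower, 24.8% and 23.9% higher). Ucp1 was at -0.65 (SE 0.12) for 2 against 1 and -0.52 (SE 0.13) for 5 against 4, and at -2.91 (SE 0.14) for 3 against 1 and -3.36 (SE 0.17) for 6 against 4. Dio2 was at -2.80 (SE 0.33) and -3.01 (SE 0.39), and at -2.07 (SE 0.28) and -2.28 (SE 0.32), in the same order. Since the sets were formed from the likeness of these numbers, the repeat describes the libraries and adds no independent support.

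The other genes of the adrenergic pathway were read from lists written for brown adipocytes. Of 31 tested genes of adrenergic input, from receptors to cAMP-responsive genes, 0 were called between any labelled times. In numbers 2+5 against 1+4, 13 were higher and 10 lower (median 0.08), and in 3+6 against 1+4, 6 were higher and 10 lower (median -0.02), beside 59.5% and 59.7% of all genes called. The receptor gene Adrb3, the main beta-adrenergic receptor of mouse fat, was at 43.0 ± 1.47 CPM in 1+4, 26.7 ± 2.83 in 2+5 and 93.3 ± 6.91 in 3+6 (SD, n = 6). Adrb3 was thus highest where Ucp1 was lowest, with log2 fold changes of -0.70 (SE 0.05) in 2+5 and 1.12 (SE 0.04) in 3+6. Nr4a1, an immediate-early nuclear receptor induced by cAMP, was at 111 ± 28.2 CPM in 1+4, 10.5 ± 1.18 in 2+5 and 5.99 ± 0.644 in 3+6, log2 fold changes of -3.31 (SE 0.14) and -4.20 (SE 0.15). Pde4d, which degrades cAMP, was higher in 2+5 by 1.37 (SE 0.06).

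Among 40 tested regulators of the thermogenic programme outside the 9 genes, 26 were higher and 8 lower in 2+5 against 1+4 (median 0.24). In 3+6 against 1+4, 18 were higher and 11 lower (median 0.03). Of all genes, 29.6% were higher and 29.9% lower in 2+5, and 30.2% and 29.5% in 3+6. Irf4, a transcription factor that works with PGC-1α in brown fat, was at 10.4 ± 1.74 CPM in 1+4, 47.7 ± 9.59 in 2+5 and 17.99 ± 2.14 in 3+6. Its log2 fold change in 2+5 was 2.30 (SE 0.12), while Ppargc1a was lower there. Esrra, the oestrogen-related receptor that PGC-1α activates, was lower in 2+5 by -0.54 (SE 0.06). Ppara, a nuclear receptor of fatty acid oxidation, was higher in 3+6 by 0.97 (SE 0.05), and Bcl6, a transcriptional repressor, was lower there by -0.59 (SE 0.04).

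Of 33 tested markers and effectors of brown adipocytes, 8 were higher and 17 lower in 2+5 (median -0.16), and 6 were higher and 23 lower in 3+6 (median -0.39), both against 1+4, where 29.9% and 29.5% of all genes were lower. Mb, the gene of the oxygen carrier myoglobin, was at 80.7 ± 6.57 CPM in 1+4, 34.1 ± 4.18 in 2+5 and 2.33 ± 0.618 in 3+6, so it was lowest in the same set as Ucp1 (log2 fold change -5.08, SE 0.09). Clstn3 was lower in 2+5 by -1.22 (SE 0.07), and Pdk4, which restrains glucose oxidation, was higher there by 0.77 (SE 0.10). Slc29a1, a nucleoside transporter, was higher in 3+6 by 0.54 (SE 0.05). No gene of these lists was called between labelled times.

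Paralogs of the members were read in the same fits. Ucp2, a relative of Ucp1 found in many tissues, was at 87.0 ± 4.27 CPM in 1+4, 109 ± 11.03 in 2+5 and 97.8 ± 7.46 in 3+6, and was higher than in 1+4 by 0.34 (SE 0.05) and 0.17 (SE 0.05). Pprc1, the third member of the Ppargc1 family, was higher in 2+5 by 0.55 (SE 0.04) and in 3+6 by 0.91 (SE 0.03). Ebf1 was higher by 0.58 (SE 0.05) in 2+5 and 0.31 (SE 0.05) in 3+6. Letm1, whose protein shares a domain with that of Letmd1, was lower by -0.46 (SE 0.04) and -0.81 (SE 0.04). Cideb was lower in both, by -1.70 (SE 0.19) and -1.24 (SE 0.17), and Cidec, the lipid droplet protein of white fat, was lower in 3+6 by -0.51 (SE 0.05). Of 15 paralogs tested, 6 were higher and 4 lower in 2+5, and 5 were higher and 6 lower in 3+6, beside 59.5% and 59.7% of all genes called in these comparisons. Dio1, Kcnk1 and Kcnk9 had 0 counts in all 18 libraries.

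The genes nearest to Ucp1 and Dio2 in their pattern over the 18 libraries were found by the root mean square difference of log2 CPM, each gene centred on its own mean, among 8960 genes. For Ucp1 they were Cox6a2, the heart and muscle form of a cytochrome c oxidase subunit, at 0.303 and Scd3, a stearoyl-CoA desaturase, at 0.303, where the median gene was at 1.37. Cox6a2 had mean levels of 18.9, 14.2 and 3.14 CPM in the 3 sets, and Scd3 had 67.9, 59.4 and 8.71 CPM. For Dio2 they were Lrrc39 at 0.641, with 26.8, 4.78 and 9.53 CPM, and Btg2, an antiproliferative immediate-early gene, at 0.665, with 187, 23.9 and 21.6 CPM. The 18 libraries share sets and depths, so the likeness is a description.

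Markers of other cell states moved with the sets. Of 16 tested markers of preadipocytes and fibroblasts, 13 were higher and 1 lower in 2+5, and 14 were higher and 1 lower in 3+6, both against 1+4, with medians of 0.47 and 0.99, beside 29.6% and 30.2% of all genes higher. Their sum was 1520 to 1708 CPM in the libraries of 1+4, 1946 to 2768 in 2+5 and 2697 to 3382 in 3+6, without overlap between 1+4 and the others. General adipocyte markers summed to 26580 to 27494 CPM in 1+4, 22771 to 26909 in 2+5 and 15010 to 18243 in 3+6. Of the 22 adipocyte markers, 8 were higher and 12 lower in 2+5 against 1+4 (median -0.28). In 3+6, 7 were higher and 14 lower against 1+4 (median -0.49), but 12 higher and 7 lower against 2+5 (median 0.20). The shares of all genes higher and lower were 29.6% and 29.9%, 30.2% and 29.5%, and 28.6% and 28.5%, in that order. Smooth muscle markers summed to 53.0 to 58.8, 51.6 to 85.5 and 102 to 130 CPM. Set 3+6, where Ucp1 and Kcnk3 were lowest, thus had the lowest adipocyte and the highest preadipocyte sums, while Cidea and Ebf2 were not lower there. A sum weighs abundant genes most, and of the adipocyte markers called between 3+6 and 2+5 more were higher than lower in 3+6. The part of these shifts in the levels of the 9 genes was not tested.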

How the data were processed

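Total RNA of 18 libraries was sequenced as read pairs after ribosomal depletion, per the labels. The authors deposited expected counts per gene, which salmon estimated according to the table's name (27.4% of nonzero values had decimals). Build mm10, edgeR and limma appear in the submitters' processing notes. For salmon, neither version nor annotation nor strand setting is given in the sources used here.

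Expected counts were rounded. Genes were kept by filterByExpr (minimum count 10, minimum total 15), leaving 14788 genes with at least 99.9% of each library's counts. CPM used TMM-scaled totals (edgeR's trimmed means), and log2 CPM a prior count of 2. Tests were edgeR quasi-likelihood F-tests, two-sided, over all 18 libraries, with time alone for labelled times and with time as covariate for sets and numbers. P-values were adjusted by Benjamini-Hochberg over all tested genes with a threshold of 0.05. SE is the log2 fold change divided by the square root of F, and intervals are 95%. Software: edgeR 4.0.16, DESeq2 1.42.0 and limma 3.58.1 in R 4.3.3, and pandas 2.3.3, scipy 1.17.1, numpy 2.4.6 and matplotlib 3.10.9 in Python 3.11.15. Positions are from GENCODE M21, in which 45143 identifiers were found, and promoters from RefSeq (GRCm38.p6).

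Pairing by replicate number was checked: in all 18 pairs of one number at different times, the departures from the time means correlated, at 0.297 to 0.718. Pairs with numbers 3 apart correlated at 0.237 to 0.688, so the check cannot tell a pairing by number from membership of a set. The pairing comes from the titles. No 2 libraries of one time agreed within sampling noise (chi-square per degree of freedom at least 3.31).

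The members and lists were chosen with earlier results of these data known. Genes named outside the 9 are paralogs, the called gene with the largest rise and fall of each list per set against 1+4 (mean log2 CPM of at least 3), and 2 nearest genes for members whose set means span at least 1 on the log2 scale. Predicted genes were not named by this rule. Alternatives were DESeq2, limma-voom, library totals without scaling, no filter, the replicate block, sets without time in the model, and leaving out each library. Sequences of 2 members' promoters that are in the table, and positions of Cidea and Ppargc1b, are not given here.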

Additional observations from a re-analysis of the deposited data

Results flagged for a closer look

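In 3 of 54 groups of 6 libraries (each gene in each labelled time and each set) 1 library lay far from the other 5, judged by its gap to the nearest library over the range of the group on the log2 CPM scale. Chance alone marks about 1 group in 20.

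Dio2 was lowest in 24 h replicate 5 among numbers 2+5, with 0 counts and a gap of 0.670 of the range. That library is the one rich in ribosomal RNA, where 0 counts allow up to 0.995 CPM. Dio2 was also lowest in 4 h replicate 6 among numbers 3+6, at 0.195 CPM and a gap of 0.632 of the range. Kcnk3 was highest in 24 h replicate 4 among numbers 1+4, at 275 CPM and a gap of 0.627 of the range.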

How the results depend on the processing

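Counts of members called were within 1.5 times of those reported under DESeq2, limma-voom, no filter, the replicate block, sets without time in the model and each left-out library. Scaling by library totals alone lowered them to 5 for 2+5 against 1+4 and to 4 for 3+6 against 1+4. For 3+6 against 2+5 the count stayed at 8. Between single numbers it fell to 3 for 2 against 1, 5 for 5 against 4, 2 for 3 against 1 and 2 for 6 against 4. In the filtered edgeR fits with TMM scaling over all 18 libraries, the median log2 fold change of all genes was within 0.01 of 0. With library totals alone it was -0.09, 0.17 and 0.25 in the 3 set comparisons (2+5 and 3+6 against 1+4, 3+6 against 2+5). Between times it was then -0.17 for 24 h against 0 h and -0.16 for 24 h against 4 h. All genes called then numbered 3788, 4536 and 5130 for the sets, 1590, 1854, 1870 and 2366 for numbers 2 against 1, 5 against 4, 3 against 1 and 6 against 4, and 8 for number by time. The share higher among genes called went from 49.7%, 50.6% and 50.1% to 35.6%, 75.0% and 85.9% in the sets. Signs turned, without a call, for Ppargc1a (0.15) and Ppargc1b (0.14) in 3+6 against 1+4, for Kcnk3 at 4 h against 0 h (-0.0016), for Cidea (-0.0750), Prdm16 (-0.0737) and Kcnk3 (-0.19) at 24 h against 0 h, and for Ppargc1a (-0.14), Ppargc1b (-0.11), Cidea (-0.14) and Prdm16 (-0.11) at 24 h against 4 h. Kcnk3 in 3+6 against 2+5 lost its call (-0.30, edgeR adjusted p = 0.164), and Cidea there gained one (0.40, edgeR adjusted p = 0.0395). The cause was not tested.

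The replicate block left 0 members called in each comparison of times and called 1 gene for 24 h against 0 h. With it, values near 0 turned sign for Dio2 at 4 h against 0 h (-0.0123) and for Ppargc1a (-0.0034) and Cidea (-0.0020) at 24 h against 4 h. DESeq2 gave Dio2 -0.0122 at 4 h against 0 h, and 1 gene for number by time, where no filter gave 302. limma-voom turned Letmd1 at 24 h against 0 h (0.0072), Prdm16 (-0.0070) and Kcnk3 (0.0139) at 24 h against 4 h, and Ebf2 in 2+5 against 1+4 (0.0017). Leaving out 1 library gave 0 to 1 genes called for 4 h against 0 h and for 24 h against 4 h, the 1 without 4 h replicate 3. It gave Ebf2 -0.0066 to 0.0188 in 2+5 and Ppargc1a -0.0313 to 0.0099 in 3+6, both against 1+4. Without 24 h replicate 5, Kcnk3 (-0.0211), Letmd1 (0.0510) and Ppargc1b (0.0024) turned sign at 24 h against 0 h, as did Letmd1 (0.0227) at 24 h against 4 h. Members' fold changes between times, single numbers and number by time were recomputed without that library alone, the other comparisons without each of the 18. Depth limits Dio2, with 0 to 12 counts per library in numbers 2+5.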
